A study of Mus musculus with 12 samples.

Results

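Connexins are the protein subunits of gap junctions, and RNA of 6 connexin genes was followed in the mouse aorta over 4 treatments: Gja1, Gja4, Gja5, Gjb2, Gjb5 and Gjc1. Their probes were found by gene name among the non-control probes of the arrays, which gave 8 of 55681 probes and 6 of 34797 gene names. The 6 genes were selected on earlier results of these same 4 groups, and which of those values decided the choice is not recorded. Their levels and differences are therefore given as a description, with the side of the fit's threshold on which each fell but no p value. All mice were male C57BL/6J adults, and each of the 12 arrays held RNA from the aorta of 1 mouse on day 3, with 3 mice a group. DMSO mice received only dimethylsulfoxide, which dissolves the drug. Rapamycin mice received rapamycin, an inhibitor of the kinase mTOR, at 2 mg/kg/day in DMSO. BA+DMSO mice received vehicle injections and, from minipumps, angiotensin II (AngII, 1 µg/kg/min) and BAPN (beta-aminopropionitrile), an inhibitor of lysyl oxidase, at 150 mg/kg/day. BA+rapamycin mice received the same challenge with rapamycin. No mouse was free of DMSO. The sample titles of the DMSO group begin with Pre, which the study's staining uses for aorta before the challenge. Whether it means that for these arrays is not stated, and it bears on every comparison with the DMSO group.

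A gap junction is a cluster of channels that join the cytoplasm of neighbouring cells, and each cell contributes a ring of connexins to every channel. In arteries, Cx37 (Gja4) and Cx40 (Gja5) are known as endothelial connexins, Cx43 (Gja1) is found in smooth muscle, fibroblasts and endothelium at sites of disturbed flow, and Cx45 (Gjc1) in smooth muscle and the conduction system of the heart. Cx26 (Gjb2) and Cx31.1 (Gjb5) are known from epithelia.

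A level below is the log2 of a probe's background-subtracted intensity minus the 75th percentile of its array, so that 0 is the brightness of the 75th percentile and a difference of 1 is a doubling. Levels of different probes cannot be set against each other, because probes bind with different strength. Array brightness, the 75th percentile itself, ran from 221 to 337 intensity units in the 6 unchallenged arrays and from 74.6 to 246 in the 6 challenged ones. All DMSO arrays and rapamycin replicate 1 lay on one slide, and the other 8 arrays on a second slide, so slide and challenge cannot be told apart on vehicle, and only rapamycin replicate 1 links the slides. All 11 smooth muscle, 12 endothelial and 8 fibroblast markers examined were above background on every array, all of them cell types that an aorta is known to hold. In whole aorta, fewer cells of a type and less RNA per cell cannot be told apart.

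Each probe reads 1 place of a transcript, and the first 30 bases are shown 5′ to 3′ for the probes on which the results turn, with positions on mm9. The position is that of the whole probe, and the minus strand is meant for Gja4 and Gjc1. No part is in capitals.
Gja4, chr4:126988848-126988907: acccagcgccaagttgactttcgagcctcc
Gja5, chr3:96857349-96857408: ccgacactggcactaagactctctgttctg
Gja5 5′ end, chr3:96836339-96836395: caaataacagtgggcagttgaacagcagcc
Gjc1, chr11:102661010-102661069: gttgtgtcttccagatccagagaagaactg
Gja1, chr10:56109814-56109873: ctacacattaactcagaacttgtattctga
The leading 39 bases of the second Gja5 probe are the last 39 bases of the RefSeq promoter window of Gja5, which ends 50 bases after the gene's start. That probe spans 57 genomic bases with 60 bases of its own. It therefore reads the 5′ end of the transcript, 21.0 kb from the other Gja5 probe. Whether the other probes lie in coding sequence or in a UTR was not looked up, since no annotation of mm9 was used here.

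Promoter windows were held by the RefSeq table (GRCm38.p6) for 5 of the 6 genes, all except Gjc1. The 250 bases upstream of the start are shown for the 3 of these genes that were measured above background throughout. Capitals mark matches, on either strand, to the letters TGAGTCA (the AP-1 site bound by Fos and Jun), GGGCGG (the GC box), TATAAA or GTGGGAA (a core of the site bound by the Notch effector Rbpj), or to the CArG box.
Gja4, minus strand, chr4:127314040-127314289: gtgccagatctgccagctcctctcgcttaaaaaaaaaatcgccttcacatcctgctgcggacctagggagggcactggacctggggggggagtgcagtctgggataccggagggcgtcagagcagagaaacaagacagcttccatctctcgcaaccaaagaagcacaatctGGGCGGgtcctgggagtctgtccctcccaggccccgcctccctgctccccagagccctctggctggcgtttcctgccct
Gja5, plus strand, chr3:97032152-97032401: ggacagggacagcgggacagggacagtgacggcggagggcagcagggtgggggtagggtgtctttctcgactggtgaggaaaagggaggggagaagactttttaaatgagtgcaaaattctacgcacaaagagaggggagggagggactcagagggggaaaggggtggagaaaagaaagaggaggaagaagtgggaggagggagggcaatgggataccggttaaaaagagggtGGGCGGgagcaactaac
Gja1, plus strand, chr10:56377050-56377299: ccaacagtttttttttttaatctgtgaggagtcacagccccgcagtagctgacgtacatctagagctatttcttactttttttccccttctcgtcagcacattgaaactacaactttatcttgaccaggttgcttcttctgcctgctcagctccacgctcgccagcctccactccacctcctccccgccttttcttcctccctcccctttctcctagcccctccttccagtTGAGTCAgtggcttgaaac
The Gja4 and Gja5 windows each held 1 GGGCGG, starting 79 and 17 bases upstream, a motif present in 32.7% of all 32851 windows of this length. Gja1 held 1 TGAGTCA starting 19 bases upstream, which 4.46% of windows hold. None of these 3 windows held TATAAA (12.4% of windows), GTGGGAA (5.42%) or a CArG box (1.47%). No motif overlapped another. A match is a description of the letters in this window and no evidence of a bound factor.

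The challenge comparison asked how connexin RNA differed between BA+DMSO and DMSO mice. Gja4 was 3.63-fold higher and Gjc1 was lower, while Gja5 and Gja1 did not pass the threshold. Of the 4 genes with a tested probe, 1 was called higher and 1 lower in limma's fit, a call being a Benjamini-Hochberg adjusted p under 0.05 over all probes tested. Over the whole array 20.5% of 27801 probes were called in this comparison, 9.65% higher and 10.8% lower, and 34.6% had groups that did not overlap. These shares rest on single arrays, since the 5697 calls became 3269, 2051 and 3050 without DMSO replicates 1, 2 and 3, and 3105 and 10574 without BA+DMSO replicates 1 and 3. The other 2 genes, Gjb2 and Gjb5, had no probe above background on all arrays of any group and were not tested.

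Gja4 encodes Cx37, which in the aorta lines the endothelium. Its level was 1.97, 2.07 and 2.16 in the DMSO mice. It was 2.94, 3.14 and 2.54 in the rapamycin mice. In BA+DMSO mice it was 4.03, 3.82 and 3.92, and in BA+rapamycin mice 3.71, 2.80 and 4.85. Every BA+DMSO mouse lay above every DMSO and rapamycin mouse, and the BA+rapamycin mice spread over a range that reached both below and above the BA+DMSO mice. The DMSO and rapamycin mice did not overlap either. Groups did not overlap in 34.6% of all probes for the challenge on vehicle and in 21.5% for rapamycin alone. Group means were 2.06 ± 0.097 (SD, n = 3) in DMSO and 3.93 ± 0.10 in BA+DMSO, a log2 difference of 1.86 with a 95% interval from 0.98 to 2.74. That difference was larger than the difference of each of the 12 endothelial markers in the same comparison, which ran from -0.28 to 1.40 with a median of 0.53. The summed level of these markers, in which the strongest probes weigh most, was 124 to 146 in DMSO and 172 to 254 in BA+DMSO. On vehicle 4 of the 12 were called higher (Kdr, Tie1, Emcn and Robo4), beside 9.65% of all probes. The 3 with the highest DMSO signal, Egfl7, Vwf and Nos3, differed by 0.76, 0.49 and 0.10 and were not called. The part of the endothelial markers in the Gja4 difference was not tested. The call of Gja4 was lost with slide as a fixed block (1.95), with array weights, which let noisier arrays count less (1.82), and with a replicate block for the arrays whose titles share a number (1.88).

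Under rapamycin the challenge difference of Gja4 was 0.91 (95% interval 0.038 to 1.79) and not called. The SD over the 3 BA+rapamycin mice was 1.03, larger than that of 97.3% of tested probes in that group, against 0.10 in BA+DMSO, where only 3.23% of probes had a smaller one. Without BA+rapamycin replicate 2 the difference was 1.41 and called, and without replicate 3 it was 0.38 and not called. With normexp, a background correction that draws dim signals together, it was 0.51 and not called. Among the 12 endothelial markers, 2 had a larger challenge difference than Gja4 under rapamycin. The 12 ran from -0.99 to 1.73 with a median of 0.36. Of them 3 were called higher and 2 lower, beside 18.9% and 22.9% of all probes. For Gja4 the rapamycin group had a mean of 2.87 ± 0.30 (SD, n = 3), 0.81 above DMSO (95% interval -0.065 to 1.69). This difference was not called. It was 0.87 on the slide that held both groups (1 array against 3), and 0.73 within the 2 arrays of each group whose titles share a date. The interaction, the change with rapamycin in challenged mice minus that in unchallenged mice, was -0.95 and not called.

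Gja5 encodes Cx40, the partner of Cx37 in arterial endothelium. Its tested probe read 2.11, 2.40 and 2.55 in DMSO, and 2.55, 2.63 and 2.10 in rapamycin. It read 3.23, 2.93 and 2.51 in BA+DMSO, and 2.81, 2.71 and 3.26 in BA+rapamycin. The lowest BA+DMSO mouse lay within the DMSO range, while every BA+rapamycin mouse lay above every rapamycin mouse. Groups did not overlap in 65.9% of all probes in that last comparison. The challenge difference was 0.53 (95% interval 0.0026 to 1.07) on vehicle and 0.50 (-0.036 to 1.03) under rapamycin, and neither was called. Without BA+DMSO replicate 3 the vehicle difference was 0.72 and called. The difference under rapamycin was 0.11 with normexp and 0.091 with brightness as a covariate, and the vehicle difference 0.30 with either, none of them called. The median difference of the endothelial markers was 0.53 on vehicle and 0.36 under rapamycin, and 6 of the 12 had a larger difference than Gja5 on vehicle.

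The probe at the 5′ end of Gja5 was not well above background on any of the 6 unchallenged arrays. It was well above background in 2 of 3 BA+DMSO mice (replicates 2 and 3) and 2 of 3 BA+rapamycin mice (replicates 1 and 3). Its levels were -4.46, -4.19 and -4.16 in DMSO and -4.21, -4.47 and -4.73 in rapamycin. In BA+DMSO they were -3.11, -2.06 and -3.83, and in BA+rapamycin -2.66, -2.72 and -2.23. The lowest level that counted as well above background was -4.52 to -3.71 on the unchallenged arrays and -3.95 to -2.28 on the challenged ones, and levels under it have no order. No fold is given, because the probe was also not well above background on 1 array of each challenged group. The probe did not pass the filter and has no test. The third Gja5 probe, 44.9 kb from the 5′-end probe, was above background on no array.

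Gjc1 encodes Cx45, a connexin of vascular smooth muscle. Its level was 1.83, 2.09 and 1.94 in DMSO. It was 1.81, 1.72 and 1.85 in rapamycin. It was 0.74, 0.43 and 1.04 in BA+DMSO and 0.41, 0.48 and 0.30 in BA+rapamycin. All 6 challenged mice lay below all 6 unchallenged mice, and the 2 challenged groups overlapped. The DMSO mean was 1.95 ± 0.13 (SD, n = 3) and the rapamycin mean 1.79 ± 0.064. With the challenge the means were 0.74 ± 0.31 on vehicle and 0.40 ± 0.090 under rapamycin. Gjc1 was called lower with the challenge on vehicle, by a log2 difference of -1.22 (95% interval -1.60 to -0.83). It was also called lower under rapamycin, by -1.40 (-1.79 to -1.01). In that comparison 1 of 4 genes was called, beside 41.7% of all probes (18.9% higher and 22.9% lower), and 65.9% of probes had groups that did not overlap. Those shares rest on single arrays too, since the 11602 calls became 6530 to 15816 without single arrays. The calls were 1786 with brightness as a covariate and 2796 with the replicate block. On the slide that held both groups the difference of Gjc1 was -1.39 (3 arrays against 2). The call on vehicle was lost with slide as a fixed block (-1.19), with array weights (-1.14) and with the replicate block (-1.16), while the call under rapamycin was kept in each of these.

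Of 11 smooth muscle markers, 2 were called lower on vehicle (Synpo2 and Lmod1), beside 10.8% of all probes. The 11 differences ran from -2.58 to 0.45 with a median of -0.63. The contractile genes Tagln, Acta2 and Cnn1, differed by 0.45, 0.27 and -0.35 and were not called. Under rapamycin 1 of the 11 was called higher, Tagln, and 4 lower, beside 18.9% and 22.9% of all probes. The difference of Gjc1 on vehicle was more negative than that of 9 of the 11. Of 9 markers of striated and cardiac muscle, another site of Gjc1, 7 were tested. Ckm and Myh7 passed the filter only through unchallenged groups, so no median or count of calls is given for the list. Acta1, Myh6 and Tnnt2, above background on every array, differed by -1.05, -2.28 and -0.74 on vehicle and were not called. Under rapamycin they differed by -1.48, 2.66 and -0.076, with Acta1 called lower. The part of either cell type in the Gjc1 difference was not tested.

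**Figure D1:**
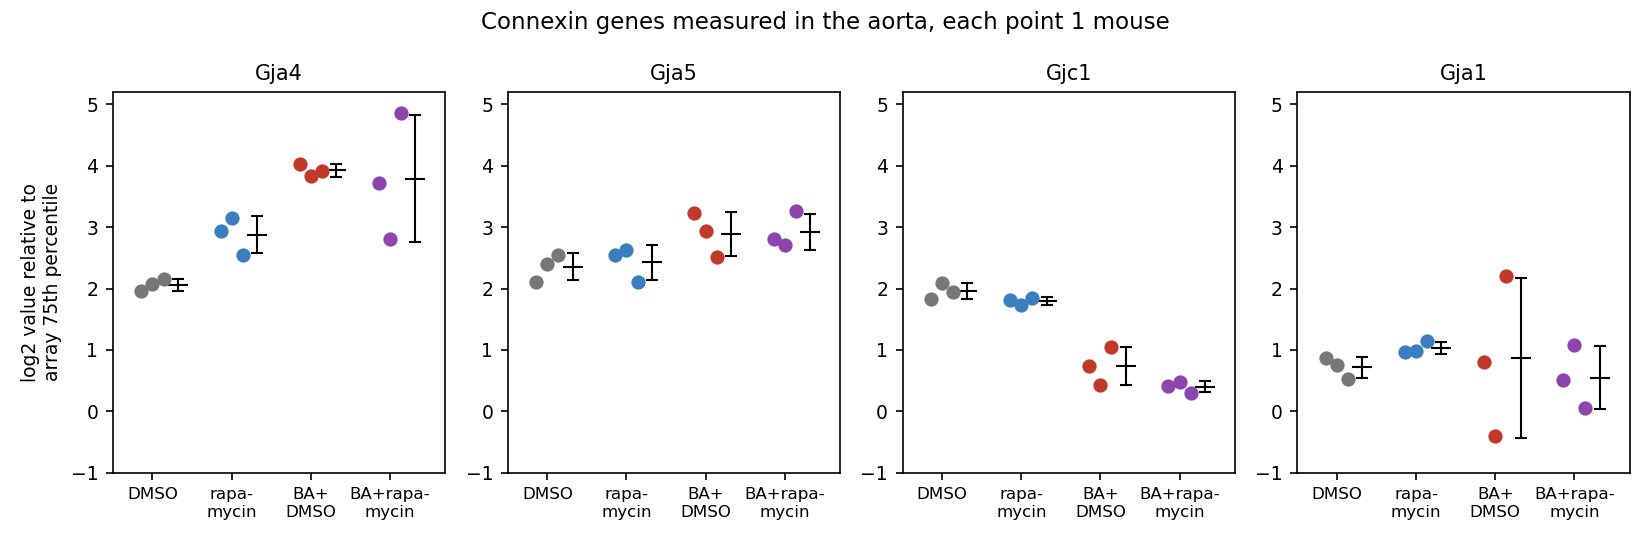
Level of Gja4, Gja5 (tested probe), Gjc1 and Gja1 (vertical axis, log2 relative to the 75th percentile of the array) in each mouse of the 4 groups (points), with the group mean and SD beside them (black). Gja4 rises from about 2.06 in DMSO to 3.93 in BA+DMSO, Gjc1 falls from 1.95 to 0.74, and Gja1 scatters over the BA+DMSO mice.

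Gja1 encodes Cx43, the most widespread connexin of the vessel wall. The array carries its probe on 10 spots. The level was 0.87, 0.76 and 0.53 in DMSO. It was 0.97, 0.98 and 1.15 in rapamycin. It was 0.81, -0.39 and 2.20 in BA+DMSO, and 0.51, 1.07 and 0.056 in BA+rapamycin. BA+DMSO held both the highest and the lowest of all 12 mice, and it overlapped each of the other groups. All rapamycin mice lay above all DMSO mice, by 0.31 in the mean, and this was not called. These groups did not overlap in 21.5% of all probes.

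The SD over the BA+DMSO mice was 1.30, against 0.17 in DMSO, 0.10 in rapamycin and 0.51 in BA+rapamycin. It was larger than that of 95.3% of tested probes in BA+DMSO, where the median probe had an SD of 0.50. The SD over the spots of one array was 0.035 to 0.15, with a median of 0.068, which holds the noise between spots but not that of labelling or hybridisation, since each mouse had 1 array. Array brightness moved with these values in BA+DMSO, at 132, 78.1 and 246 intensity units for levels of 0.81, -0.39 and 2.20. In BA+rapamycin the levels were 0.51, 1.07 and 0.056 at 109, 74.6 and 108 units. With brightness as a covariate the challenge difference of Gja1 was 1.19 on vehicle and 1.33 under rapamycin, neither called. Without it, the challenge difference of Gja1 was 0.15 (95% interval -0.96 to 1.27) on vehicle, and -0.48 (-1.60 to 0.63) under rapamycin. Leaving out single arrays moved the vehicle difference from -0.51 to 0.79, with no call, so its direction rests on which BA+DMSO mice are kept. Of 8 markers of fibroblasts, another site of Gja1, 3 were called higher on vehicle and 4 under rapamycin. Over all probes 9.65% and 18.9% were called higher. Among the 8 markers, Col1a2, Dcn and Col3a1 differed by 0.70, 0.074 and 0.85 on vehicle.

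**Figure D2:**
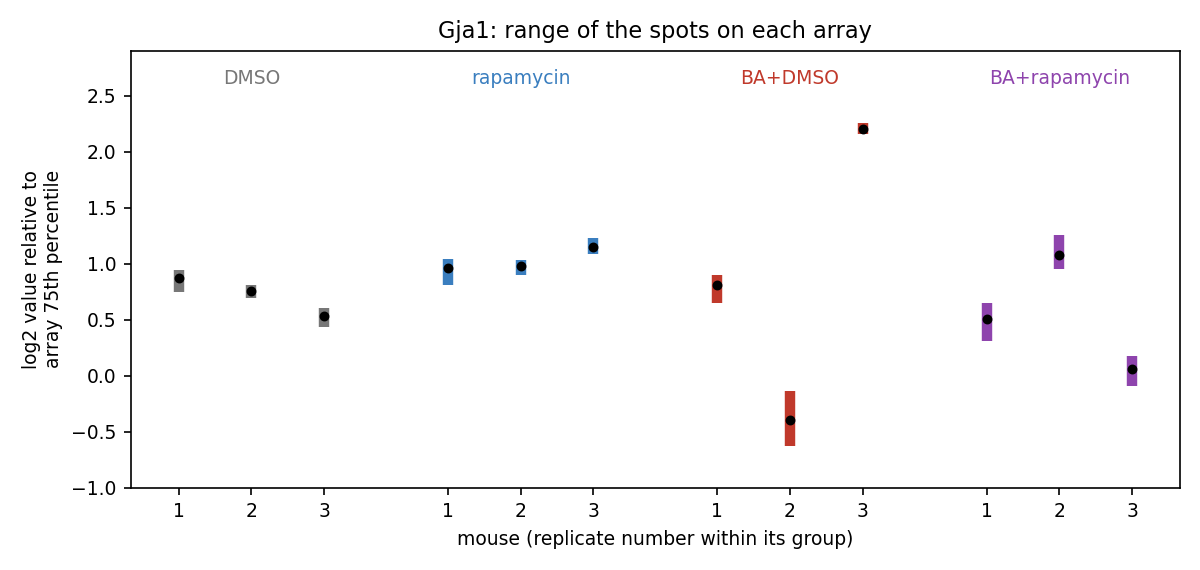
Level of Gja1 (vertical axis, log2 relative to the 75th percentile of the array) on each of the 12 arrays: bars run from the lowest to the highest of the up to 10 spots, black points are their mean, and mice are numbered within their group. The BA+DMSO means are 0.81, -0.39 and 2.20, and the bars show the noise between spots, not that between arrays.

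Gjb2 and Gjb5, the connexins of epithelia, were at or under the limit of the arrays. Gjb2 (chr14:57717629-57717688) was above background on 1 of 12 arrays, that of rapamycin replicate 2, where it read -3.60. Gjb5 (chr4:127032053-127032112) was above background on no array. Its levels, from -6.18 to -4.19, carry no order.

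Of 12 markers of stratified epithelium, a tissue of both genes, 7 (Krt1, Krt15, Krt6a, Dsg3, Dsc3, Epcam and Cdh1) were above background on none of the 12 arrays, and Krt5 only in DMSO. Of the 4 tested, Dsp was called lower on vehicle and none was called higher. Under rapamycin Krt14, above background on 2 of 3 arrays of each group compared, and Trp63 were called higher and Dsp and Krt10 lower. The summed level of the 12 was 29.6 to 32.2 in DMSO and 15.5 to 63.2 in BA+DMSO. It was 23.4 to 27.9 in rapamycin and 39.9 to 68.3 in BA+rapamycin. Of 8 mesothelial markers, 6 were called higher on vehicle and none under rapamycin, but 5 of the 6 were not above background on all DMSO arrays, and Upk1b and Lrrn4 passed the filter only through BA+DMSO. Of 9 macrophage markers on the array, 9 were called higher on vehicle, Cd163 among them above background on 1 of 3 DMSO and 2 of 3 BA+DMSO arrays, and 5 under rapamycin. Of 6 tested adipocyte markers, 1 was called lower under rapamycin, and Ucp1, called higher on vehicle, was above background on no DMSO array and passed the filter only through BA+DMSO. Of 6 tested neutrophil markers 2 were called higher on vehicle (Ly6g and Elane) and 2 under rapamycin (Elane and Csf3r). The proliferation markers Mki67 and Birc5, above background on every array, were called higher in both. The summed macrophage level was 24.1 to 45.0 in DMSO and 71.9 to 179 in BA+DMSO. Over all probes 9.65% were called higher and 10.8% lower on vehicle, and 18.9% and 22.9% under rapamycin.

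Rapamycin in challenged mice changed no tested gene of the 6 past the threshold. BA+rapamycin minus BA+DMSO was -0.14 for Gja4 (95% interval -1.01 to 0.74), 0.034 for Gja5 (-0.50 to 0.57), -0.34 for Gjc1 (-0.73 to 0.049) and -0.33 for Gja1 (-1.44 to 0.79). None of the 4 was called, beside 0.281% of all probes, and 14.5% of probes had groups that did not overlap. Without adjustment 5585 probes had a p under 0.05. These intervals still hold changes of over 1 on the log2 scale for Gja4 and Gja1. When single arrays were left out, the difference ran from -0.67 to 0.36 for Gja4 and from -0.16 to 0.20 for Gja5. That of Gja1 ran from -0.96 to 0.34, so the sign of each of these rests on single arrays. All 6 arrays of this comparison lay on one slide. Gjc1 was called lower by 0.49 on the log2 scale when BA+DMSO replicate 2 was left out, a setting in which 11092 probes were called in place of 78. In the pair of arrays whose titles share a date, 1 in each group, the 4 differences were -0.32 for Gja4, -0.42 for Gja5, -0.32 for Gjc1 and -0.30 for Gja1.

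Rapamycin alone gave no call among the 4 genes, beside 0.0036% of all probes, and 21.5% of probes had groups that did not overlap. The differences were 0.81 for Gja4, 0.31 for Gja1, 0.072 for Gja5 and -0.16 for Gjc1. Without adjustment 1187 probes had a p under 0.05, and with array weights 1512 probes were called, none of the 4 genes. The interaction gave no call in the 4 genes and in 0% of all probes, with 1702 probes at an unadjusted p under 0.05. Without BA+DMSO replicate 2 it was called in 3058 probes, still none of the 4 genes. The interaction of Gjc1 was -0.18, of Gja5 -0.038 and of Gja1 -0.64. With single arrays left out, that of Gjc1 ran from -0.33 to -0.028 and that of Gja5 from -0.23 to 0.13. Leaving out single arrays moved that of Gja4 from -1.48 to -0.45 (without BA+rapamycin replicates 3 and 2) and that of Gja1 from -1.27 to 0.028 (without BA+DMSO replicates 2 and 3). The comparisons of one set share arrays (challenge and rapamycin alone share the DMSO mice). Apart from the interaction, their values stand side by side and were not set against each other.

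Of the other connexins 11 were read, of which 4 had a tested probe. Gjb1 was called higher in both challenge comparisons. Gja6 and Gjc3 were above background on all unchallenged arrays but on 1 of 6 challenged ones each, and passed the filter only through the groups where they are high, so no lower call or median is counted for the list. In both rapamycin comparisons none was called. Gja3 and Gjc3 were not called in any of them.

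Gjb1 encodes Cx32, known from liver and myelinating Schwann cells, and was above background on all arrays. Its probe (chrX:98580902-98580961) was 0.54 ± 0.17 (SE) higher on vehicle (limma adjusted p 0.0424) and 0.47 ± 0.17 higher under rapamycin (limma adjusted p 0.0442), a call kept in only 7 of 25 and 9 of 25 alternative fits. Of 5 tested Schwann cell markers, 2 were called higher and 1 lower on vehicle, and 1 higher and 1 lower under rapamycin. The shares over all probes were 9.65% and 10.8% on vehicle, and 18.9% and 22.9% under rapamycin. Gjb1 was named after its values were seen. Gja6, whose protein Cx33 is known from testis, was above background on all unchallenged arrays and on 1 of 6 challenged ones. Its probe (chrX:157340784-157340843) read -0.99, -1.09 and -0.82 in DMSO, and -4.73, -2.75 and -2.43 in BA+DMSO. Gja6 passed the filter only through the unchallenged groups, and 2 of 3 BA+DMSO levels were under the background limit, so its difference of -2.34 on vehicle is a description and not a size. Under rapamycin it was at least 2.87-fold lower, a bound given without a test for the same reason. With normexp the 2 fitted differences were -0.54 and -0.22.

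Pannexins form channels that release ATP and share the membrane topology of connexins without a shared sequence. Of 3 on the array, only Panx1 was measured above background throughout a group. Panx1 (chr9:14810250-14810309) read -0.23, -0.58 and -0.21 in DMSO and -0.40, -0.0084 and -0.47 in rapamycin. It read 2.59, 1.64 and 1.39 in BA+DMSO and 2.04, 1.99 and 2.05 in BA+rapamycin, with no overlap between challenged and unchallenged mice. Groups did not overlap in 34.6% of all probes on vehicle and in 65.9% under rapamycin. Panx1 was higher with the challenge by 2.21 ± 0.28 (SE, limma adjusted p 0.000788) on vehicle and by 2.32 ± 0.28 (SE, limma adjusted p 0.00036) under rapamycin. Its call on vehicle was lost with slide as a fixed block (2.05) and with array weights (1.87). It did not pass the threshold in either rapamycin comparison.

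**Figure D3:**
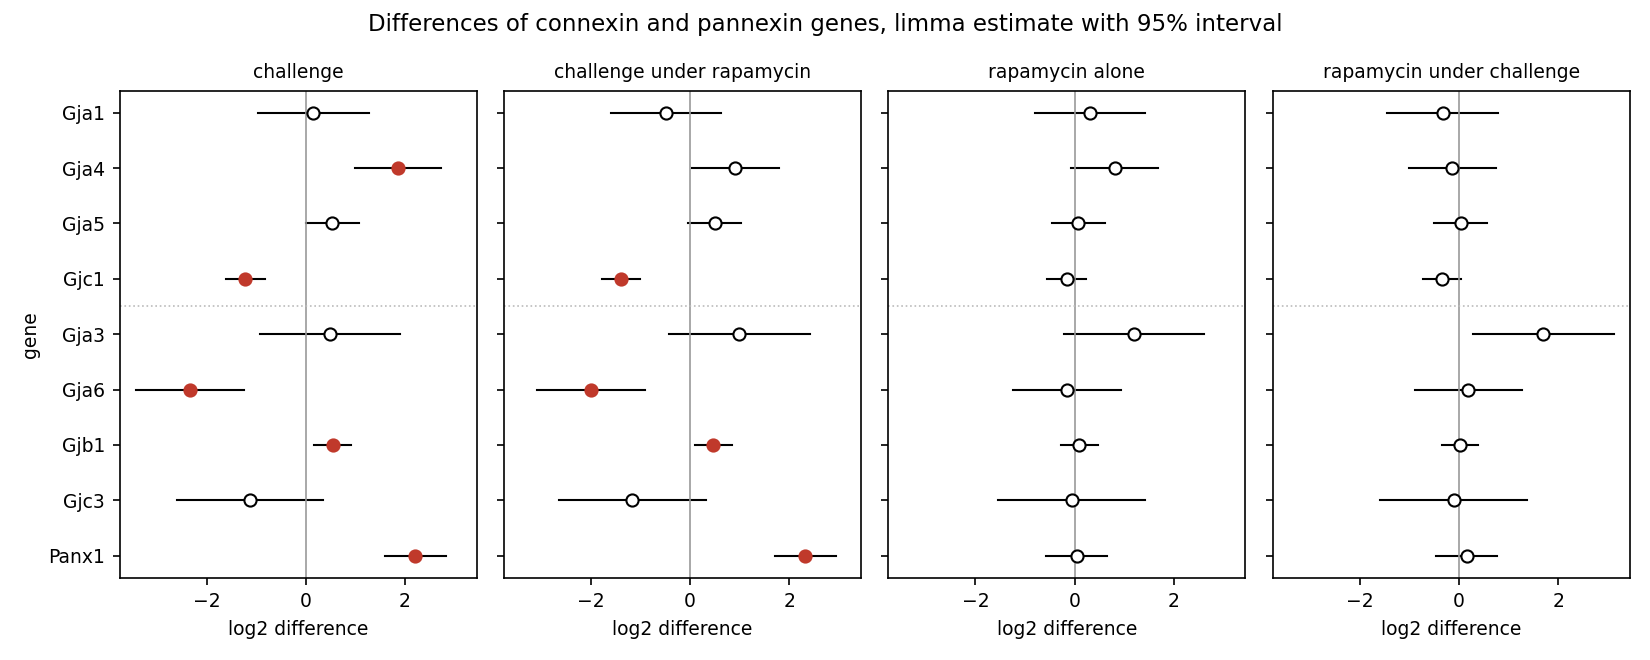
Log2 difference (horizontal axis) of the tested connexin genes and Panx1 in 4 comparisons, as limma's estimate (points, filled where called) with its 95% interval (lines), the 4 chosen genes above the dotted line. Gja4, Gjb1 and Panx1 are filled to the right and Gjc1 to the left of 0 on vehicle. No point is filled in either rapamycin comparison. Gja6, with levels under the background limit, is also filled to the left, but it passed the filter only through the unchallenged groups. Its point and interval are not a size, and its call is not counted.

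Partners of connexins at the junction, their kinases and their traffic were followed in a list of 22 genes, 21 of them tested. With the challenge on vehicle 1 was called higher and 3 lower, beside 20.5% of all probes. Ezr, which encodes ezrin, a linker of membrane proteins to actin, was higher by 1.48 ± 0.28 (SE, limma adjusted p 0.0058). Prkcd, a protein kinase C, was lower by -0.86 ± 0.19 (limma adjusted p 0.0125), and Tjp1, the scaffold ZO-1 that binds the tail of Cx43, by -0.85 ± 0.25 (limma adjusted p 0.0363). The third of the lower genes was Csnk1d. Under rapamycin 3 were called higher and 6 lower, beside 41.7% of all probes. Src, a kinase that phosphorylates Cx43, was higher by 3.20 ± 0.69 (limma adjusted p 0.00581), Prkce by 1.60 ± 0.53 (limma adjusted p 0.0335) and Cdh2, N-cadherin, by 1.46 ± 0.32 (limma adjusted p 0.00601). The median difference of the list was -0.010 on vehicle and -0.22 under rapamycin, beside -0.045 and -0.085 over all probes.

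Transcription factors known to act on connexin genes made a list of 16, of which 13 were tested. On vehicle none was called higher and 6 were called lower, namely Fos, Jun, Tbx18, Id2, Mef2c and Sp1, beside 10.8% of all probes called lower. Fos, above background on 2 of 3 BA+DMSO arrays, was lower by -3.39 ± 0.62 (SE, limma adjusted p 0.00451), Jun by -1.90 ± 0.44 (limma adjusted p 0.0144) and Tbx18 by -1.43 ± 0.27 (limma adjusted p 0.0054). Under rapamycin Notch1 was called higher and 5 genes lower, beside 18.9% and 22.9% of all probes. Notch1 differed by 2.87 ± 1.01 (limma adjusted p 0.0419), Fos by -2.02 ± 0.62 (limma adjusted p 0.0245) and Id2 by -1.83 ± 0.39 (limma adjusted p 0.0052). The list's median was -0.36 on vehicle and -0.38 under rapamycin.

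Genes of arterial endothelial identity, among which Gja4 and Gja5 are usually counted, were followed in a list of 12 others, 11 tested. None was called higher and 3 were called lower on vehicle, namely Hey2 (-1.21 ± 0.28, SE, limma adjusted p 0.0141), Epas1 (-0.97 ± 0.25, limma adjusted p 0.0215) and Jag1 (-0.71 ± 0.18, limma adjusted p 0.0204). Of all probes 10.8% were called lower there. Hey2 is a Notch target, Jag1 a Notch ligand, and Epas1 a hypoxia-inducible factor of endothelium. Under rapamycin 4 were called lower, Hey2, Epas1, Hey1 and Efnb2, beside 22.9% of all probes. Of the 11, 5 had an estimate above 0 on vehicle and 3 under rapamycin, none of them called. The median difference was -0.050 on vehicle and -0.39 under rapamycin, beside -0.045 and -0.085 over all probes. Gja4 differed by 1.86 and 0.91. In the rapamycin comparisons no gene of these 3 lists was called.

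Genes with the most similar pattern were sought among 12665 named genes by the root mean square difference over the 12 arrays after each gene was centred on its own mean. For Gja4 these were Selp (0.28), Tmem88 (0.29) and Batf3 (0.35), on the log2 scale, where Gja4 itself varied by 0.87 around its mean and the median gene differed from it by 1.00. Selp, the endothelial adhesion molecule P-selectin, had means of -1.07 and -0.47 in the DMSO and rapamycin groups, and of 0.35 and 0.64 in the BA+DMSO and BA+rapamycin groups. For Gja5 they were Lcorl (0.10), Ap1g2 (0.11) and Mmrn2 (0.16), the last a protein of the endothelial matrix. For Gjc1 they were Pcm1 (0.11), Notch2 (0.12) and Ppp2r5a (0.12), and for Gja1 Usp39, Rnh1 and Cyb5r3 (0.24 to 0.25). Among the 4 genes themselves Gja4 and Gja5 were the closest pair, at 0.61, and Gja4 and Gjc1 the most distant, at 1.48. Gja5 itself varied by only 0.35 around its mean, and the median gene differed from it by 0.60. Gja4 was therefore no closer to Gja5 than the median gene was. All points share arrays and scaling, so these are descriptions without a test.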

How the data were processed

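RNA from the aorta of 12 mice was hybridised, labelled with Cy3, to 1-colour Agilent mouse arrays (8x60K design). Per the file headers, Feature Extraction 10.7.1.1 made the processed signal, a linear intensity after background subtraction, with no normalization across arrays. The submitters' processing notes name version 9.5.1.1. Per the file headers, other flag columns mark spots above background, saturated or outlying (0 or 1). The deposited matrix holds intensity that matches a quantile normalization of the processed signal (lowest correlation 0.999941).

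Intensities were put on the log2 scale, outlier spots dropped, spots of a probe averaged and each array's 75th percentile subtracted. A probe was tested if at least 0.5 of its spots were above background on all 3 arrays of a group, which left 27801 probes. One limma 3.58.1 model (R 4.3.3) held all 12 arrays, with a prior of 3.02 degrees of freedom. Tests were two-sided, adjusted by Benjamini-Hochberg within each contrast, with calls under 0.05. Where a gene had several probes, the one brightest on average was counted. The fit was tested on simulated data. Given with values were all 6 members, the 3 largest called differences of each pathway list and the 3 nearest patterns of each member. So were the 3 markers of a list with the highest DMSO signal, a rule of naming only. Further genes were named without a difference, for their call or their place against background. The members and lists were chosen with earlier results of these data known, and some genes of one list are not reported here. Replicate numbers follow deposition order. Most sample titles hold a date whose meaning is not stated, so whether processing days differed is not known. The dates are spread unevenly over the groups. The p values weigh a difference against the spread between arrays within groups. With 1 array a mouse, that spread mixes differences between mice with those of labelling and hybridisation. For the challenge on vehicle the p values cannot tell challenge from slide. No column of another sample was used. The number of arrays limits the precision.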

Additional observations from a re-analysis of the deposited data

How the results depend on the processing

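Each comparison was refitted under other background corrections, scalings, probe filters, slide, brightness and array-weight models and without each array in turn. On vehicle the challenge called 2 of the 4 tested genes, and 0 with slide as a fixed block (15 calls over all probes). It also called 0 with array weights, whose estimate did not converge (112 calls), and with the replicate block (728 calls). No tested gene passed the study's limits of p under 0.01 and fold over 4 or under 0.25. For these limits p was taken here without adjustment. Without single arrays the count was 2 to 3. Gja4 (1.59 to 2.12) and Gjc1 (-1.37 to -0.97) kept their direction in all 25 alternative fits and their call in 22. Part of these fits changed only the probe filter or left out arrays of the other groups. There the difference was the main fit's by construction, so its direction could not turn. Both genes were also chosen on these data, so the counts are a description. Under rapamycin the challenge called 1 gene, 4 with array weights (18256 of 27801 probes against 11602), 0 with the study's limits (1428) and 1 to 2 without single arrays, 2 without BA+rapamycin replicate 2. Rapamycin under challenge called 0, and 0 to 1 without single arrays. Rapamycin alone and the interaction called 0 throughout. The replicate block used the numbers 2 and 3 that DMSO and rapamycin titles share, with a shared date. The deviations of those pairs correlated at 0.17 and -0.35, so those numbers were not taken to pair the arrays. DMSO replicate 1 and BA+rapamycin replicate 3 also share a date and number in their titles, and their deviations were not compared. A random block for the date in the titles, chosen after seeing the data, called as many genes as the main model in each of the 5 comparisons. With brightness as a covariate Gjc1 differed by -0.97 on vehicle and -0.96 under rapamycin, both called. The median of all probes for the challenge under rapamycin moved from -0.085 to 0.14 with normexp background correction and to -0.18 with quantile normalization. Gja1 turned sign between settings in every comparison with challenged mice. Levels under background limit Gjb2, Gjb5 and 2 of the 3 Gja5 probes.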
